A study of Saccharomyces cerevisiae with 9 samples.

Results

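Cyclins are the regulatory subunits that switch on the cyclin-dependent kinase Cdc28 of budding yeast and steer it to its substrates. CLN1, CLN2 and CLN3 act in G1 and lead the cell to Start, the commitment to divide. CLB5 and CLB6 drive DNA replication in S phase, CLB3 and CLB4 act in S phase and early mitosis, and CLB1 and CLB2 drive mitosis. Apart from CLN3, whose RNA varies little, the transcripts of these genes rise and fall in each cycle, and the proteins are short-lived because ubiquitin ligases mark them for destruction.

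The 9 genes were found on the array by their systematic names, which were YMR199W (CLN1), YPL256C (CLN2), YAL040C (CLN3), YGR108W (CLB1), YPR119W (CLB2), YDL155W (CLB3), YLR210W (CLB4), YPR120C (CLB5) and YGR109C (CLB6). Each had 1 probe among the 6947 array features, 6377 of which carried a systematic gene name. All 9 probes had a value above the floor of the deposited ratios on all 9 arrays, so none was lost to a filter. Probe sequences were not used here, and how far a probe also takes up RNA of a related cyclin was not tested.

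The arrays compared Saccharomyces cerevisiae strains after 6700 generations of experimental evolution with the strains they came from. The mutator line m8 was set against its mutator ancestor on 6 arrays, and an evolved non-mutator against its own non-mutator ancestor on 3 arrays. Each evolved strain is 1 line, and both ancestors and both evolved strains were grown in YPD, a rich glucose medium, in 3 ml cultures to an OD600 of about 0.3. The allele that makes the mutator strains mutators is not given in the sources used here. Evolved RNA carried the dye Cy5 and ancestor RNA Cy3 on every array, and no dyes were swapped, so a dye effect on a probe cannot be told apart from a change in the strain. The direction of the deposited ratio is not stated with the values and was taken from these labels as evolved over ancestor.

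The 6 mutator arrays came as a first round of 3 and a repeat round of 3 with the same evolved RNA numbers. On the repeat array of number 2 the ancestor RNA was number 1. The first and the repeat array of each number were averaged into a single replicate, which gave 3 mutator and 3 non-mutator replicates. Nothing in the labels says that these came from separate cultures, so p-values measure only the spread between these samples. The mutator arrays were far wider than the non-mutator arrays, with a standard deviation of the log2 ratio over probes of 0.848 to 1.0 against 0.275 to 0.304. Values below are log2 ratios from which the array median was subtracted, and a gene is called higher or lower where limma's adjusted p (Benjamini-Hochberg over all probes tested) is under 0.05.

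In the mutator, 8 of the 9 cyclins were higher than in the ancestor, with folds from 1.19 for CLB1 to 2.88 for CLB6, and none was lower. CLN2 was not called, and CLB1's call did not hold with the round as a random block (adjusted p in limma 0.332). On the repeat arrays alone, CLN2 and CLB1 were lower. Of all 6866 probes tested, 37.3% were called higher and 37.8% lower, so a call by itself was common on these arrays. The median log2 ratio of the 9 cyclins was 0.87, against 0.02 over all probes tested. In bulk RNA, a larger share of cells in the phase when a cyclin is transcribed and more of its RNA per cell cannot be told apart. In the evolved non-mutator the median of the 9 was -0.02, and CLB1 alone was called, as lower. The plot of the values by array shows all 9 genes.

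**Figure D1:**
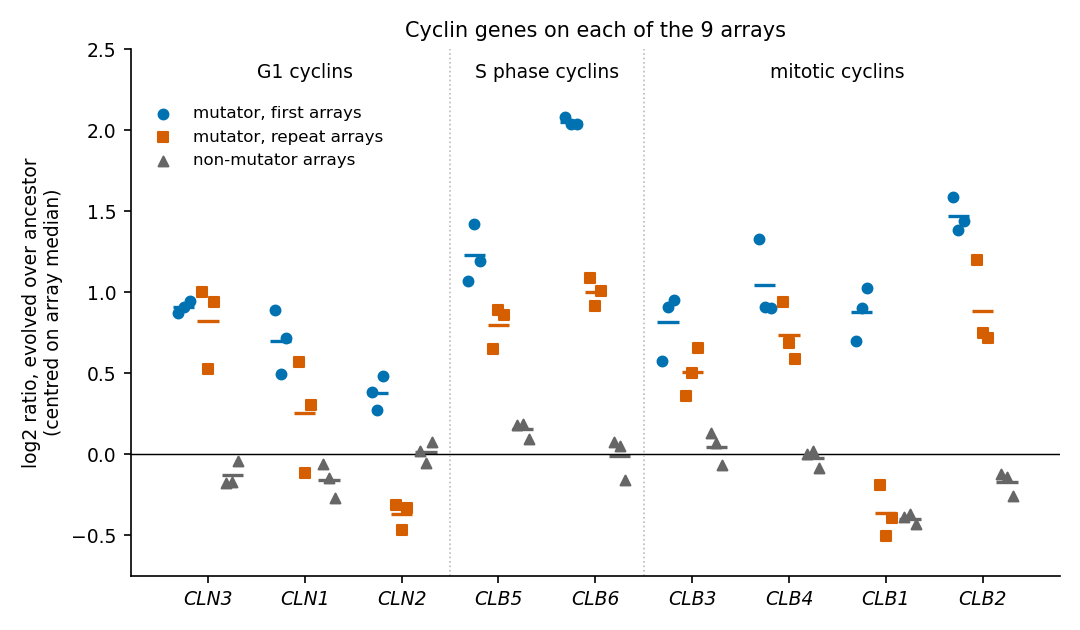
Log2 ratio of evolved over ancestor (vertical axis, centred on each array's median) of the 9 cyclins on the 3 first mutator arrays, the 3 repeat mutator arrays and the 3 non-mutator arrays, with a bar at each set's mean. CLB6 lies at 2.04 to 2.08 on the first arrays and 0.91 to 1.09 on the repeat arrays, and CLN2 and CLB1 lie above 0 on the first arrays and below 0 on the repeat arrays.

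CLN3 encodes the G1 cyclin that acts first, upstream of the other G1 cyclins, and helps to relieve Whi5 of its hold on the G1/S transcription factor SBF. Its log2 ratio was 0.87, 0.91 and 0.95 on the first mutator arrays and 1.0, 0.53 and 0.94 on the repeat arrays of numbers 1, 2 and 3. On the non-mutator arrays it was -0.18, -0.17 and -0.04 for numbers 3, 4 and 2. Every mutator array was above every non-mutator array, and the rounds overlapped. The mutator mean was 0.87 ± 0.13 (SD, n = 3 replicates; adjusted p in limma 3.45e-05), a fold of 1.82. The repeat array of number 2 was the lowest of the 6.

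CLN1 and CLN2 encode the pair of G1 cyclins that SBF turns on in late G1, and they promote budding and the removal of the inhibitor Sic1. CLN1 stood at 0.89, 0.50 and 0.71 on the first arrays and at 0.57, -0.12 and 0.30 on the repeat arrays. It was below 0 on 1 of the 6 mutator arrays and on all 3 non-mutator arrays, where it ranged from -0.27 to -0.06. The mutator mean was 0.48 ± 0.27 (SD, n = 3; adjusted p in limma 0.00567), a fold of 1.39. From the repeat arrays alone the mean was 0.25 and was not called (adjusted p in limma 0.125).

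CLN2 was 0.38, 0.27 and 0.48 on the first arrays and -0.31, -0.47 and -0.34 on the repeat arrays. It was 0.02, -0.06 and 0.07 on the non-mutator arrays, between the rounds. All first arrays were therefore above all non-mutator arrays, and all repeat arrays below them. The mean over both rounds was 0.00 ± 0.09 (SD, n = 3; adjusted p in limma 0.949), and it averages values of opposite sign. With each round fitted alone, CLN2 was called higher at 0.38 in the first round (adjusted p in limma 0.00149) and lower at -0.37 in the repeat round (adjusted p in limma 0.00154).

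CLB5 and CLB6 encode the S-phase cyclins, whose transcription in late G1 depends on MBF, the sister factor of SBF. CLB6 was 2.08, 2.04 and 2.04 on the first arrays, the highest of the 9 cyclins on each of them. On the repeat arrays it was 1.09, 0.91 and 1.01. The non-mutator arrays gave 0.08, 0.05 and -0.16. The 3 sets of arrays did not overlap. Its mutator mean was the largest of the 9 at 1.53 ± 0.06 (SD, n = 3; adjusted p in limma 3.01e-06), a fold of 4.15 from the first arrays and 2.00 from the repeat arrays.

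CLB5 was 1.07, 1.42 and 1.19 on the first arrays, 0.65, 0.89 and 0.86 on the repeat arrays and 0.18, 0.19 and 0.09 on the non-mutator arrays. These sets did not overlap either, and CLB5 was the only cyclin above 0 on all 3 non-mutator arrays. The mutator mean was 1.01 ± 0.15 (SD, n = 3; adjusted p in limma 1.92e-05), a fold of 2.02. The non-mutator mean of 0.15 ± 0.05 (SD, n = 3) was not called (adjusted p in limma 0.145).

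CLB3 and CLB4 encode B-type cyclins that take part in spindle assembly. CLB4 ranged from 0.90 to 1.33 on the first arrays, from 0.58 to 0.94 on the repeat arrays and from -0.09 to 0.02 on the non-mutator arrays. CLB3 ranged from 0.58 to 0.95, from 0.36 to 0.65 and from -0.06 to 0.13 on the same sets. In both genes the mutator rounds overlapped, and every mutator array was above every non-mutator array. The mutator mean was 0.89 ± 0.21 for CLB4 and 0.66 ± 0.17 for CLB3 (SD, n = 3; adjusted p in limma 0.000102 and 0.000295).

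CLB1 and CLB2 encode the mitotic cyclins, which are transcribed together in G2 and M through the factors Mcm1, Fkh2 and Ndd1. CLB2 is the one on which mitosis chiefly relies. It was 1.59, 1.38 and 1.44 on the first arrays, 1.20, 0.75 and 0.72 on the repeat arrays and -0.12, -0.14 and -0.26 on the non-mutator arrays. No set overlapped another. The mutator mean was 1.18 ± 0.19 (SD, n = 3; adjusted p in limma 2.10e-05), a fold of 2.26.

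CLB1 was 0.70, 0.90 and 1.03 on the first arrays and -0.19, -0.51 and -0.39 on the repeat arrays. On the non-mutator arrays it was -0.39, -0.37 and -0.43. The repeat arrays spread to both sides of the non-mutator arrays and lay apart from the first arrays. The mutator mean of 0.26 ± 0.06 (SD, n = 3; adjusted p in limma 0.00197) joins a first-round mean of 0.88 and a repeat-round mean of -0.36. Without the repeat array of number 2 it was 0.49 (adjusted p in limma 0.0104), with replicate 2 then taken from its first array alone. The repeat-round mean was called lower when that round was fitted alone (adjusted p in limma 0.00434).

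The averaging over rounds hides the spread between them, so the fit was repeated with the round as a random block. In that fit 7 cyclins stayed higher in the mutator, beside 29.9% of all probes, and CLB1 lost its call (adjusted p in limma 0.332). CLB1 also lost it with the 6 arrays as separate replicates (0.297) or the RNA number as a random block (0.153). With the RNA number the correlation within blocks was -0.314. That fit called 5246 of all probes, against 4869 with separate replicates. Both CLN1 (0.0581) and CLB1 (0.08) lost their call with every array scaled to an equal median absolute deviation. That scaling lowered the mutator means of the 8 called cyclins, to 0.16 for CLB1 and 0.99 for CLB6 at the ends. The first round alone gave all 9 as higher, beside 35.4% of probes. The repeat round alone gave 6 higher, beside 34.2% of probes, and CLN2 and CLB1 lower, beside 34.8%. CLN3, CLB2, CLB3, CLB4, CLB5 and CLB6 were higher in each round.

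In the evolved non-mutator, CLB1 was lower than in the ancestor by a mean of -0.40 ± 0.03 (SD, n = 3; adjusted p in limma 0.00301), a fold of 0.759. Of all probes, 11.1% (759) were called lower in this comparison, which became 294, 177 and 187 probes without non-mutator replicate 2, 3 and 4 in turn. CLB1 was below 0 on all 3 arrays, and no other cyclin was below it on any of them. Its call was lost with the round as a random block (adjusted p in limma 0.873) or the RNA number as one (0.513), with the 6 mutator arrays as separate replicates (0.589) and without the repeat mutator array of number 2 (0.077). The spread in these fits is shared with the mutator arrays. In the round fit the 3 non-mutator arrays, which have no rounds, formed 1 block. Of all probes, 83 were called in the non-mutator in that fit, against 1457 in the main fit. The CLB1 call was also lost with the replicate number as a block (adjusted p in limma 0.078). It held with each group fitted alone (0.00247), with the first mutator arrays only (0.0187) and with the repeat ones only (0.0226). It also held when any 1 replicate was left out. With every array scaled to an equal median absolute deviation, 5 cyclins were called in the non-mutator, CLN1, CLN3, CLB1 and CLB2 as lower and CLB5 as higher, beside 25% of all probes called lower and 25.3% called higher. The other 8 means lay between -0.17 for CLB2 and 0.15 for CLB5.

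The difference between the lines, mutator minus non-mutator, is signed and does not compare the sizes of the changes in the lines. It was called higher for 8 of the 9 cyclins, beside 33.0% of all probes tested. The largest differences were 1.54 for CLB6 and 1.35 for CLB2 (adjusted p in limma 2.11e-05 and 8.68e-05), followed by 0.997 for CLN3, 0.91 for CLB4 and 0.86 for CLB5. CLB1, CLN1 and CLB3 differed by 0.65, 0.63 and 0.61. For CLB1 this joins a mutator mean of 0.26 and a non-mutator mean of -0.40. CLN2 differed by -0.01 (adjusted p in limma 0.926). For 6 of the 9 cyclins (CLN3 and CLB2 to CLB6) every mutator array was above every non-mutator array, which held for 28.3% of the 6173 probes with a value on all 9 arrays.

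With the round as a random block, 6 differences remained called, beside 18.9% of all probes. CLN1 (adjusted p in limma 0.0793) and CLB1 (0.21) lost theirs, and CLB1 also did with the 6 arrays as separate replicates (0.164) or the RNA number as a random block (0.0967). With every array scaled to an equal median absolute deviation, the difference for CLB3 was 0.34 and lost its call (adjusted p in limma 0.0844), while those for CLB5, CLB4 and CLB1 were 0.31, 0.63 and 1.09 and kept theirs. From the repeat round alone the difference was 0.03 for CLB1, against 0.65 from both rounds, and 0.41 for CLN1, and neither was called. The plot of the fitted means sets both lines side by side.

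**Figure D2:**
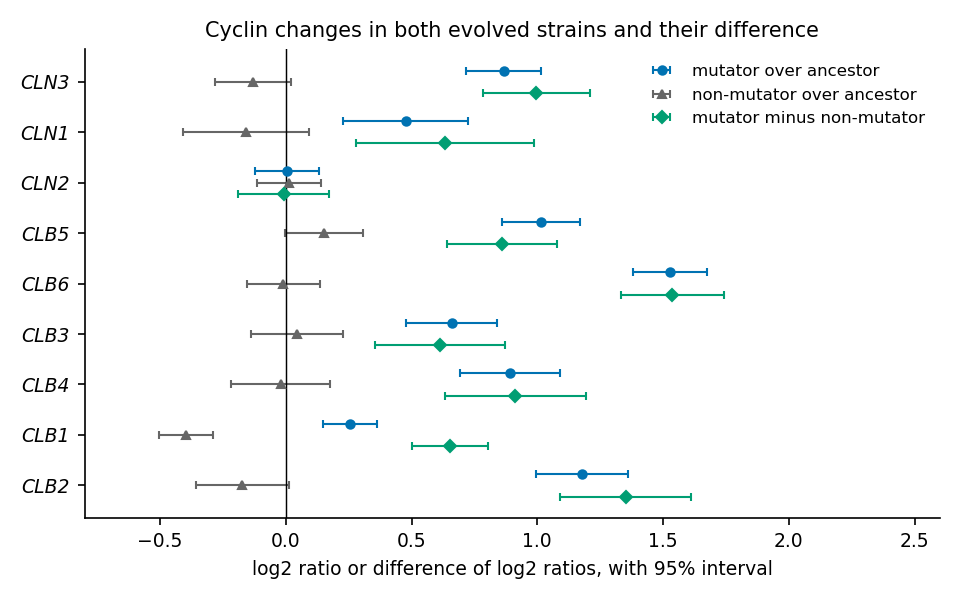
Fitted mean log2 ratio of evolved over ancestor (horizontal axis) of each cyclin in the mutator (circles) and the non-mutator (triangles) and their difference (diamonds), with 95% confidence intervals from the fit across all probes, n = 3 replicates in each line. The mutator means run from 0.00 for CLN2 to 1.53 for CLB6, and the non-mutator means from -0.40 for CLB1 to 0.15 for CLB5.

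All 9 cyclins had a lower mean in the repeat round than in the first, where 52.4% of all probes had a lower one. In the first round the median was 0.91 for the cyclins and 0.01 over all probes. The share among probes that were as high in that round was not taken. The drop can therefore not be called particular to the cyclins. The median of the repeat-minus-first difference was -0.45 over the cyclins and -0.02 over all 6571 probes tested. Single differences ran from -0.09 for CLN3 to -1.24 for CLB1. CLB1 (-1.24, adjusted p in limma 0.00717), CLB6 (-1.05, adjusted p in limma 0.00483) and CLN2 (-0.75, adjusted p in limma 0.0168) were called lower, beside 1.73% (114) of all probes. The latter count was 44, 46 and 68 without the first array of number 2, the first array of number 3 and the repeat array of number 1.

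CLN2 lost its call without the first array of number 2 (adjusted p in limma 0.0657), without the first array of number 3 (0.0838) or without the repeat array of number 1 (0.0521). The calls of CLB1 and CLB6 held when any 1 of the 6 arrays was left out. CLB2 and CLB5 were not called between rounds (adjusted p in limma 0.108 and 0.14), although their rounds did not overlap. In 5 of the 9 cyclins every repeat array was below every first array, which held for 16.4% of the 6173 probes with a value on all 9 arrays. A change of sign between rounds, from above 0 on all first arrays to below 0 on all repeat arrays, was seen in CLN2 and CLB1 and in 1.38% of these probes. Both shares are over probes of any first-round value.

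**Figure D3:**
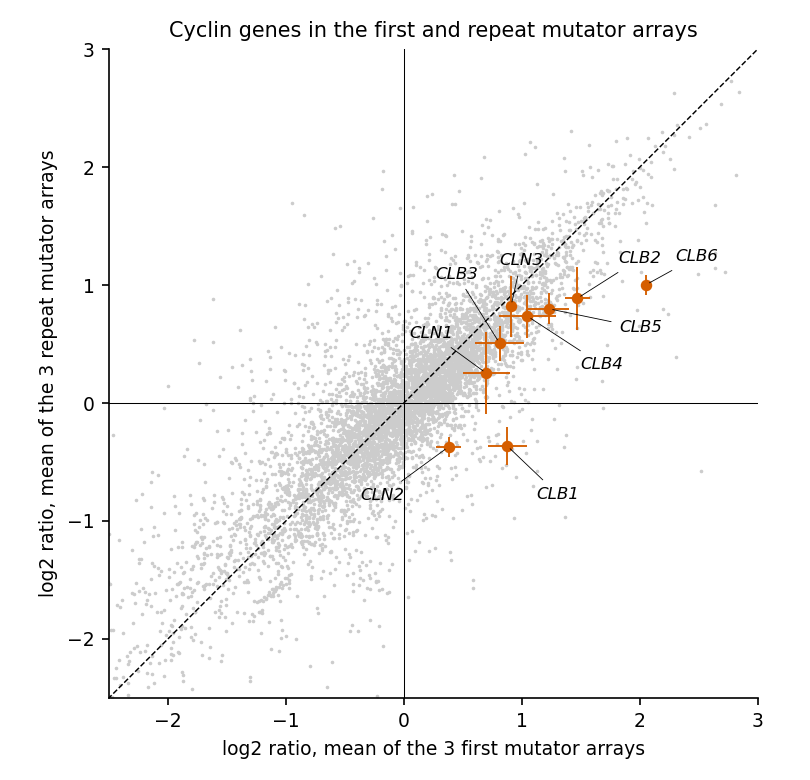
Mean log2 ratio of each probe on the 3 first mutator arrays (horizontal axis) against its mean on the 3 repeat arrays (vertical axis), with all probes in grey, the 9 cyclins named with error bars of 1 SD over 3 arrays, and a dashed line of equal values. Probes beyond the axes are not drawn; all 9 cyclins lie below the line, and CLN2 and CLB1 lie above 0 in the first round and below 0 in the repeat round.

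In the order of the mutator means, CLB6 was followed by CLB2, CLB5, CLB4, CLN3, CLB3, CLN1, CLB1 and CLN2. The replicates, each an average of both rounds, of CLB6 were all above those of CLB2, and those of CLB1 all above those of CLN2. All other neighbours in this order overlapped. On single repeat arrays these 2 orders did not always hold. CLB6 was below CLB2 on number 1 (1.09 against 1.20). CLB1 was below CLN2 on number 2 (-0.51 against -0.47) and number 3 (-0.39 against -0.34). In the non-mutator, CLB1 was below its neighbour CLB2 without overlap, and all other neighbours overlapped. These are orders of changes against the ancestor, not of RNA levels.

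Differences within pairs of related cyclins were taken array by array. CLB2 was above CLB1 on 6 of 6 mutator arrays, by 0.92 ± 0.19 (SD, n = 3), and by 0.22 ± 0.05 in the non-mutator. The gap was 0.59 on the first arrays and 1.25 on the repeat arrays. CLB6 was above CLB5 on 6 of 6 mutator arrays, by 0.51 ± 0.20, with a gap of 0.82 on the first arrays and 0.20 on the repeat arrays. In the non-mutator it was below CLB5 by a difference of -0.16 ± 0.08. CLN2 was below CLN1 on all 6 mutator arrays, at -0.47 ± 0.21, and above it in the non-mutator by 0.17 ± 0.15. CLB4 and CLB3 differed by 0.23 ± 0.38. The exact two-sided sign-flip permutation test on 3 replicates gave 0.25 for the first 3 pairs, the smallest p it allows, and 0.5 for CLB4 and CLB3 in the mutator, so no pair could pass the threshold.

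CLB1 and CLB6 are neighbours on chromosome VII, and CLB2 and CLB5 are neighbours on chromosome XVI, in each case with a mitotic and an S-phase cyclin on opposite strands whose ends face each other. CLB1 was below CLB6 by a difference of -1.27 ± 0.06 in the mutator and of -0.39 ± 0.10 in the non-mutator (SD, n = 3). CLB2 and CLB5 differed by 0.16 ± 0.33 in the mutator. On the far sides of these pairs in the mutator, VOA1 beside CLB1 was at -0.22 and YGR109W-B beside CLB6 at -0.65, both called lower, MRI1 beside CLB2 was at 0.17 and called higher, and THI22 beside CLB5 was at -0.13 and not called. Beside CLN1, CIK1, which encodes a partner of the kinesin Kar3, averaged 1.32 on the first arrays and -0.02 on the repeat arrays. Its difference between rounds was not called (adjusted p in limma 0.0908).

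The probes nearest to each cyclin over the 9 arrays, by root mean square difference of the log2 ratio among 5469 named probes, were in no case other cyclins. Very few of these candidates were cyclins, so this says little about the cyclins. The nearest was CBF1 to CLN3 (0.0966), OPT1 to CLB1 (0.086), SUR2 to CLN2 (0.112) and TTI2 to CLN1 (0.143). For the remaining B-type cyclins it was SPC98 to CLB2, RDH54 to CLB3, SCC2 to CLB4, NNF1 to CLB5 and TYW1 to CLB6, at 0.101 to 0.203. OPT1, which encodes an oligopeptide transporter, went from 0.79 in the first round to -0.34 in the repeat round. It was picked for its closeness to CLB1 on these same values. The nearest cyclin to CLB1 was CLN2, ranked 45 among the candidates.

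The kinase gene CDC28 was at -0.04 (adjusted p in limma 0.528), its small subunit CKS1 at 0.10 (0.137) and the inhibitor SIC1 at -0.05 (0.486) in the mutator, none of them called. Of the 11 genes of the Cdc28 module, 4 were higher and 1 lower, with a median of 0.12, where 37.3% of all probes were higher and 37.8% lower. CDC6, which loads the replicative helicase and also inhibits Cdc28, was higher at 1.24. HSL7 (0.70) and HSL1 (0.33), which act against the inhibitory kinase Swe1, were higher, as was SWE1 itself (0.66). CDC37, a chaperone partner of kinases, was lower at -0.97. FAR1, the inhibitor used in pheromone arrest, was not called in the mutator (-0.06) and was lower in the non-mutator (-1.13, adjusted p in limma 0.000794).

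Of the 13 G1/S transcription factors and regulators, 10 were higher and 3 lower in the mutator (37.3% and 37.8% of all probes), with a median of 0.41. SWI4, the DNA-binding subunit of SBF, was higher at 0.76 and MBP1, that of MBF, at 0.39. WHI5, which represses SBF until Start, was lower at -0.20. NRM1, a repressor of MBF targets, was higher at 0.83, MSA2 at 0.77 and YHP1, a repressor of early cell cycle genes, at 0.89. XBP1, a repressor induced by stress and starvation, was lower at -1.37. YHP1 and XBP1 also differed between rounds, with a repeat-minus-first difference of -1.17 and 1.16 (adjusted p in limma 0.00483 and 0.0439). None of the 13 was called in the non-mutator.

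Of the 7 factors of G2/M and M/G1, 5 were higher (37.3% of all probes). FKH1 was at 0.90 and FKH2, which acts at the CLB2 promoter, at 0.52, while MCM1 was not called (-0.06). ASH1 was higher at 0.52. Among 16 genes of the anaphase-promoting complex and its activators, 8 were higher and 2 lower (37.3% and 37.8% of all probes), with a median of 0.29. CDC20, the activator of early anaphase, was at 0.93, and the subunits CDC26 and APC1 were at 0.99 and 0.67. The meiotic activator AMA1 was lower at -1.54, a value from first arrays alone. CDH1, which directs the destruction of mitotic cyclins in G1, was at 0.10 and not called.

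Of 7 genes of the SCF ligase, which marks G1 cyclins and Sic1, 2 were higher (MET30 at 0.59 and CDC4 at 0.24) and 1 lower (CDC53 at -0.15), beside 37.3% and 37.8% of all probes. Of 11 mitotic exit genes, 6 were higher and 2 lower, beside the same shares of all probes. CDC5, the polo kinase, was higher at 1.30, BFA1 at 1.23, LTE1 at 1.21 and CDC14, the phosphatase that reverses Cdc28 phosphorylation, at 1.10. The family of Pho85, a second cyclin-dependent kinase, had 3 of 11 higher and 5 lower, again beside 37.3% and 37.8%. PCL9 was higher at 0.63, while PHO85 (-0.58), PCL1 (-0.43) and PCL5 (-1.78) were lower.

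Genes that peak with the cyclins were mostly higher as well. Of 24 others known to peak in late G1 with CLN2, 19 were higher and 2 lower in the mutator (37.3% and 37.8% of all probes), with a median of 0.63 against 0.02 over all probes. They included RNR1, the large subunit of ribonucleotide reductase, at 1.69, POL1 at 1.14, GIN4 at 1.08 and POL30, the replication clamp, at 0.98. Of 19 others known to peak in G2/M with CLB2, 15 were higher and 2 lower, beside the same shares, with a median of 0.57. HOF1 at 0.80 and ALK1 at 0.77 were among them. In the non-mutator the medians of these lists were 0.00 and 0.04. The repeat-minus-first difference was below 0 for 20 of the 24 and 18 of the 19, and for 52.4% of all probes. The first-round medians of these lists were 0.75 and 0.67, against 0.01 over all probes.

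**Figure D4:**
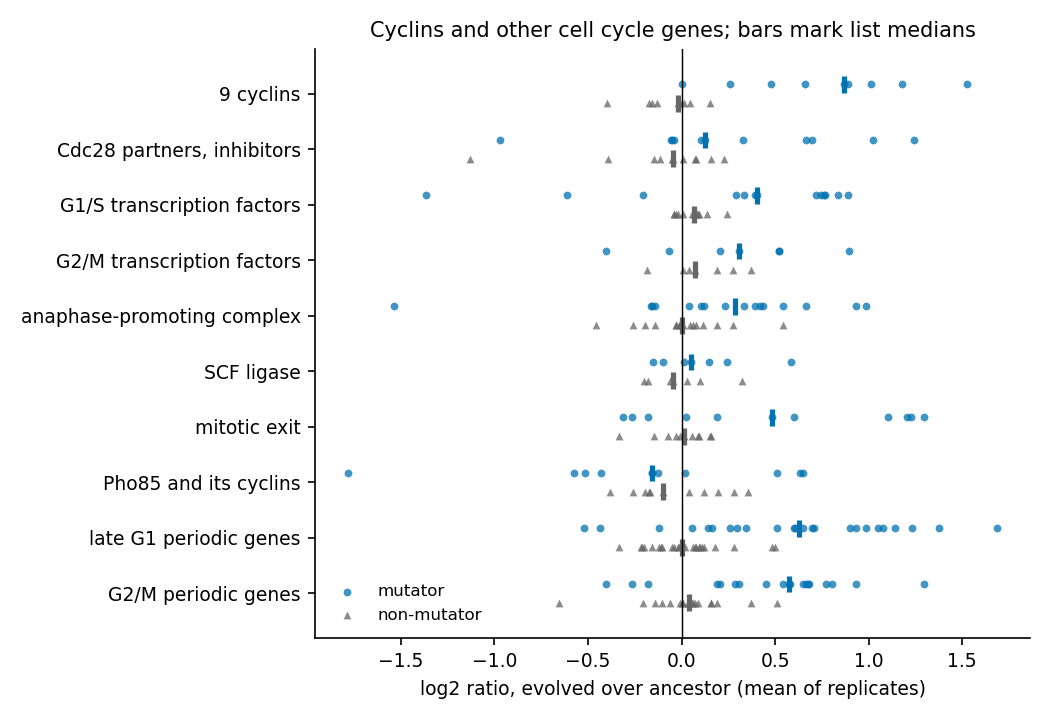
Mean log2 ratio of evolved over ancestor (horizontal axis) of each gene of the cell cycle lists, 1 list a row, with circles for the mutator, triangles for the non-mutator and a bar at each list's median. The mutator medians are 0.87 for the cyclins and 0.63 and 0.57 for the late G1 and G2/M lists, and the non-mutator medians of these lists are -0.02, 0.00 and 0.04.

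Markers of growth state moved with the cyclins in the mutator. Of 12 ribosome biogenesis genes, 12 were higher (37.3% of all probes), with a median of 1.37 (1.52 on the first and 1.23 on the repeat arrays), and RPF2 was at 2.03 and UTP8 at 1.76. Of 12 general stress genes, 12 were lower (37.8% of all probes), with a median of -2.80 (-3.38 and -2.40 in the rounds), and HSP26 was at -5.62 and TSL1 at -3.91. In the non-mutator the medians of these lists were 0.13 and 0.03. Between rounds, 3 of the 12 stress genes were called higher in the repeat round, beside 2.78% of all probes. They were CTT1, DDR2 and HSP104, by 1.07, 1.31 and 1.01. Of the 12 ribosome biogenesis genes, 1 was called lower, the helicase gene HAS1 at -0.53, beside 1.73% of all probes. The median difference of that list was -0.17 (0.57 for the stress genes), and 8 of its 12 genes were below 0, beside 52.4% of all probes. Of the 12 stress genes, 0 had a difference below 0. The part of growth state in the cyclin values was not tested.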

How the data were processed

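Total RNA was hybridised to 2-colour arrays. The values are linear ratios deposited by the authors, 1 per probe and array. The sources used here give no background correction, normalization or signal intensity, so depth and signal over background are unknown. The number of arrays limits the precision. The median deposited ratio was 1.06 to 1.07 on mutator and 1.0 to 1.01 on non-mutator arrays.

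Ratios at the floor of 0.01 (to a tolerance of 1e-04; 35 to 132 per mutator array, 2 to 4 per non-mutator array) were set to missing. The log2 of each ratio was centred on the array's median. Probes measured in 2 or more replicates per group were fitted with limma 3.58.1 in R 4.3.3 (lmFit and eBayes, 1 mean per group, two-sided, Benjamini-Hochberg adjustment). The rounds were compared in a separate fit of the 6 mutator arrays. The fits were tested on simulated data. For the fits of the lines these had the same spread in both groups and no rounds. The test therefore does not cover those features of the real arrays. Titles and descriptions number the non-mutator arrays differently, and the titles were used.

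Symbols and neighbours came from the R64 table, in which 5840 named probes matched. The array's build is not named, so no coordinates are given. No sequence was used. The cyclins and gene lists were chosen with earlier results of these data known. Of each list, up to 4 called genes with the smallest adjusted p in the mutator are named (2 of each growth-state list), with the nearest probe to each cyclin and its neighbours. A gene that this rule names is not reported here. CDC28, CKS1, SIC1, SWE1, FAR1, SWI4, MBP1, WHI5, MCM1, CDH1, CTT1, DDR2, HSP104 and HAS1 were added after their values were seen. Alternatives covered centring, scaling, the floor, the use of rounds and replicates, the moderation, missing values and the thresholds.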

Additional observations from a re-analysis of the deposited data

Results flagged for a closer look

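The change against the ancestor differed between the mutator and the non-mutator for 8 cyclins in the fit's own test of the difference. The difference was 0.63 for CLN1, 0.997 for CLN3, 0.65 for CLB1, 1.35 for CLB2, 0.61 for CLB3, 0.91 for CLB4, 0.86 for CLB5 and 1.54 for CLB6. Those of CLN1 and CLB1 were not called with the round as a random block (adjusted p in limma 0.0793 and 0.21).

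The repeat mutator arrays differed from the first ones by -0.75 for CLN2, -1.24 for CLB1 and -1.05 for CLB6. CLN2 and CLB1 went from above 0 on all 3 first arrays to below 0 on all 3 repeat arrays.

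On the 6 mutator arrays the lowest value of CLN3, 0.53 on the repeat array of number 2, stood apart from the others, with a gap to the next of 0.73 of the whole range. Chance sets about 1 in 20 such groups apart. Without that array, and so with replicate 2 taken from its first array alone, the mutator mean of CLN3 was 0.93. With all 6 arrays it was 0.87. The repeat array of number 2 is also the one whose evolved RNA number was set against another ancestor number. The part of that in the value was not tested.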

How the results depend on the processing

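CLB2, CLB5 and CLB6 were called higher in the mutator under all 21 alternatives. The count of cyclins called in the mutator, 8, fell to 3 when a log2 size of at least 1 was also asked for, and that of the difference, 8, to 2. In the non-mutator, 1 cyclin was called. The count was 5 with every array scaled to an equal median absolute deviation, 3 with each group fitted alone, and 0 with the 6 mutator arrays as replicates, with a random block for RNA number or for round, with the size asked for, with the replicate block, and without the repeat array of number 2 (an alternative chosen after seeing the data). Leaving out 1 replicate at a time gave 1 to 2, the 2 being CLB1 and CLB2 without mutator replicate 1.

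CLN2, near 0 in the mutator, turned to -0.0038 with the scaling, -0.37 on the repeat arrays alone and -0.026 with the replicate block, and ranged from -0.031 to 0.054 without 1 replicate. CLB1 turned to -0.36 on the repeat arrays alone. In the non-mutator, the replicate block turned CLB3 to -0.029, CLB4 to 0.065 and CLB6 to 0.0037. Without 1 replicate, CLN2 ranged from -0.018 to 0.047, CLB4 from -0.042 to 0.012 and CLB6 from -0.054 to 0.065. The CLN2 difference between the lines turned to 0.085 without centring, 0.0025 with the floor kept, 0.37 on the first arrays alone and 0.11 without the repeat array of number 2, and ranged from -0.043 to 0.042 without 1 replicate. Between rounds, CLN3 ranged from -0.18 to 0.061 without 1 array, the latter without the repeat array of number 2. The cause of these changes was not tested.

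The replicate numbers did not pair the samples. With group and round means removed, same-number arrays of the rounds correlated at -0.103, -0.0038 and -0.0442 across probes, and mutator with non-mutator replicates at -0.0359 for number 2 and 0.0174 for number 3. As a replicate block, the number also took the call of CLN2 between rounds (adjusted p in limma 0.0536). Over all probes, calls numbered 5154 in the mutator (1241 to 5246 under the alternatives), 1457 in the non-mutator (49 to 3455), 4390 for the difference (1328 to 4608) and 297 between rounds (89 to 351).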
